A study of Mus musculus with 12 samples.

Results

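The genes described here are 46 genes of the cell cycle and of DNA replication, taken by name from the 53465 genes counted in mouse heart tissue. All 46 were present in the table and all 46 passed the filter on low counts, so they are among the 16101 genes tested. The tissue, labelled heart and described in the study as left ventricle, came from 12 mice in 4 groups of 3, each mouse giving 1 library. A17fl/fl mice carry loxP sites in both copies of Adam17, which encodes the sheddase ADAM17, and were the littermate controls. A17α-MHCKO mice carry the same floxed alleles and a Cre recombinase driven by the α-myosin heavy chain promoter, which is active in cardiomyocytes. The deletion is thus directed to cardiomyocytes, and the other cells of the heart keep the gene. The floxed controls carried no Cre, so comparisons of genotype cannot tell loss of ADAM17 from presence of Cre. In each genotype, mice received doxorubicin (DOX), an anthracycline that poisons topoisomerase II on DNA, as intraperitoneal injections of 5 mg/kg on days 0, 7, 14 and 21 (20 mg/kg in total), or the same volume of normal saline (NS). The line was on a C57BL/6J background, and hearts were taken 4 weeks after the last injection. For the experiment with these 4 groups the study describes the animals as males, 8 weeks old when the injections began.

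A cell that divides passes through a fixed order of events. D-type cyclins with Cdk4, and then E-type cyclins with Cdk2, release the E2F factors, which switch on the genes for replication. Cdc6 and Cdt1 load the ring of 6 Mcm proteins on replication origins, the DNA polymerases and their sliding clamp Pcna copy the strands, ribonucleotide reductase and thymidylate synthase supply the nucleotides, and cyclin B with Cdk1 drives mitosis. The CDK inhibitors hold this sequence back. Adult cardiomyocytes have largely left the cycle, so in heart tissue such transcripts can come from the other cells. In a library from undissociated tissue, fewer cells of a type and less RNA per cell cannot be told apart.

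The pattern shared by most of these 46 genes was not a difference between groups. A single mouse of the control group, A17fl/fl + NS replicate 1, had the highest level of the 12 mice for 37 of the 46 genes (80.4%). Among all 16101 genes tested, that library was the highest for 26.1%, and among 168 other tested genes of the cell cycle and DNA replication it was the highest for 114 (67.9%). With all 12 libraries, no member reached an adjusted p under 0.05 in any of 7 comparisons (edgeR quasi-likelihood test, Benjamini-Hochberg adjustment over all genes tested). The direction of the median change of the members depended on this mouse in each comparison that used the A17fl/fl + NS group.

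The bases upstream of 5 of the genes are shown first, so that letters known from promoters of cell cycle genes can be seen in them. The sequences are the 250 bases before the annotated start of each gene, from RefSeq on build GRCm38.p6, read 5′ to 3′ on the gene's own strand. The capitals mark matches, on either strand, to letters read by E2F factors (TTTCCCGC, TTTCGCGC, TTTGGCGC or TTTGCCGC), to the cell cycle homology region (CHR, TTTGAA or TTTAAA) and to the CCAAT box (CCAAT). Ccnb1 and Ccnb2 encode the mitotic B-type cyclins, Cdk1 their kinase, Mcm5 a subunit of the replicative helicase, and Cdkn1b a CDK inhibitor. The first 4 were at their highest in A17fl/fl + NS replicate 1 and Cdkn1b was at its lowest there. The windows lie at chr13:100786487-100786736 on the minus strand, chr9:70421555-70421804 on the minus strand, chr10:69352913-69353162 on the minus strand, chr8:75109259-75109508 on the plus strand and chr6:134920151-134920400 on the plus strand, in that order.
Ccnb1: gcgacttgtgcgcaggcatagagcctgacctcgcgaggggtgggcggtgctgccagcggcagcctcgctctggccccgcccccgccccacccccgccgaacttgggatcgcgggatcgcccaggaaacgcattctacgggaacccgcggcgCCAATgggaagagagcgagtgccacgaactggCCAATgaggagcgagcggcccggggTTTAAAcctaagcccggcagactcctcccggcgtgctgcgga
Ccnb2: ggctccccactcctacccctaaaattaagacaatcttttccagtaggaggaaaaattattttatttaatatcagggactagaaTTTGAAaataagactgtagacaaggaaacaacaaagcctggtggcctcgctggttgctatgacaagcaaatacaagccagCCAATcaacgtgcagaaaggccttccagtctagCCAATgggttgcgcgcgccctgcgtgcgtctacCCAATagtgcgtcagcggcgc
Cdk1: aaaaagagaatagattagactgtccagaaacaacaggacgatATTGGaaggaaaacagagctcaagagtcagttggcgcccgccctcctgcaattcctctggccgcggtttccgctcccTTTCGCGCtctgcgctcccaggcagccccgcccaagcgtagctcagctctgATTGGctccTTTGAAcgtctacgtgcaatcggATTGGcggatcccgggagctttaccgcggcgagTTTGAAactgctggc
Mcm5: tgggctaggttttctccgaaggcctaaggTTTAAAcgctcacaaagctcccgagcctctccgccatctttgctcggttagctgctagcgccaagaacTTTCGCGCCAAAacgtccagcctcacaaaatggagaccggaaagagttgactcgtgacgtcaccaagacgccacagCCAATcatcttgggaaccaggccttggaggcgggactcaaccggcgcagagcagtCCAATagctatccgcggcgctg
Cdkn1b: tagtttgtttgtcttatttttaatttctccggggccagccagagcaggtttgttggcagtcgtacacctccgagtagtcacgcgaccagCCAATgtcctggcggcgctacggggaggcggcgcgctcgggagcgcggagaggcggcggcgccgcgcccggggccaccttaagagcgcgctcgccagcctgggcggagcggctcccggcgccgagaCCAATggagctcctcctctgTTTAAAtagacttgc

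The Ccnb2 window held 3 CCAAT boxes, 87, 54 and 21 bases before the start, and the Ccnb1 window held 2, 99 and 67 bases before it. In Ccnb1 a CHR match lay 42 bases before the start. The Cdk1 window held 1 E2F match, 2 CHR matches and 3 CCAAT matches. In Mcm5 the 2 E2F matches, 153 and 149 bases before the start, overlap each other on opposite strands. The Cdkn1b window held a CHR match 15 bases before the start and 2 CCAAT boxes, 161 and 35 bases before it. The windows of E2f1, Tyms, Cdt1 and Cdk4, which were also highest in A17fl/fl + NS replicate 1, held no match to any of these letters. Windows were at hand for 37 of the 46 members, in 41 windows, since some genes have more than 1 start. The genes without one are Aurkb, Ccna2, Ccnd1, Ccnd2, Ccne2, Cdkn1c, Mcm4, Pole and Tpx2. A CCAAT box was present in 11 of the 12 windows of mitosis genes (91.7%) and in 17 of the 29 windows of the other members (58.6%), against 33.8% of all 32851 promoter windows of the same length. A CHR match was present in 9 of those 12 (75.0%) and in 8 of the other 29 (27.6%), against 25.2% of all windows. E2F letters were present in 1 of the 12 windows of mitosis genes (8.33%) and in 8 of the 29 windows of the other members (27.6%), against 1.86% of all windows. These matches are letters in a window and were not tested as binding sites.

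Expressed per length as FPKM, which allows levels of different genes to be compared, the members covered a wide range. The median over the 12 mice was under 1 FPKM for 30 of the 46 genes, among them 13 of the 15 mitosis genes. Ccnd1, a D-type cyclin, was the highest with a median of 19.1 FPKM, followed by the small polymerase delta subunit Pold4 at 12.7, Ccnd2 at 9.19, Pold2 at 8.14, Pcna at 7.61 and Cdk4 at 5.57 FPKM. The inhibitors Cdkn1b and Cdkn1c followed at 5.20 and 4.47 FPKM. The ranges over 12 mice of neighbours in this order overlapped, as for Ccnd1 (9.22 to 25.4 FPKM) and Pold4 (8.38 to 28.1 FPKM). At the other end, Cdc6 had a median of 0.0682 FPKM and Ccnb1 of 0.0879 FPKM. The proliferation marker Mki67 had a median of 0.829 FPKM and Cdk1 of 0.310 FPKM. In reads, Cdk1 had between 7 and 216 counts per library, Ccnb1 between 3 and 93, and Bub1, a spindle checkpoint kinase, between 0 and 76. The 0 was in A17α-MHCKO + DOX replicate 1, where it allows a level of up to 0.189 CPM (3 counts), where CPM are counts scaled to 1000000 per library. That limit covers counting error only. In GENCODE M21, exons of 12 members lie opposite exons of another gene and those of 2, Mcm7 and Pold4, overlap a gene on the same strand. The strand setting of the counting is not given in the sources used here, so counts of these genes may hold reads of their neighbours.

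Library totals ran from 15950717 to 21725076 counts. A17fl/fl + NS replicate 1 stood apart from the other 11 libraries over all genes, with a mean correlation of 0.900 to the others against 0.948 to 0.966 for the rest. The targeted gene Adam17 had 43.6 to 70.9 CPM in A17fl/fl + NS, 48.1 to 53.2 in A17fl/fl + DOX, 34.2 to 35.3 in A17α-MHCKO + NS and 27.9 to 36.8 in A17α-MHCKO + DOX, so knockout and floxed mice did not overlap. Cardiomyocyte markers (8 genes) were present in every library, summing to 25420 to 41720 CPM in 11 libraries and to 16010 CPM in A17fl/fl + NS replicate 1, where 7 of the 8 were at their lowest. The sum of 6 neutrophil markers in that library was 2225 CPM against 5.21 to 66.0 CPM in the others, with all 6 at their highest. The 7 macrophage markers summed to 2444 CPM against 640 to 987, again with all 7 at their highest. The 7 fibroblast markers summed to 7398 CPM against 1189 to 2507, with 4 of the 7 at their highest and 2, Tcf21 and Lum, at their lowest. Most of that sum was Col3a1 (3801 CPM) and Col1a1 (2262 CPM). The 5 red cell markers summed to 3621 CPM against 518 to 1934. T and NK cell markers summed to 0.981 CPM in that library and B cell markers to 2.60 CPM, both the lowest of the 12. The part of these cells in the level of the members was not tested. Each comparison is given below with and without this library.

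**Figure D1:**
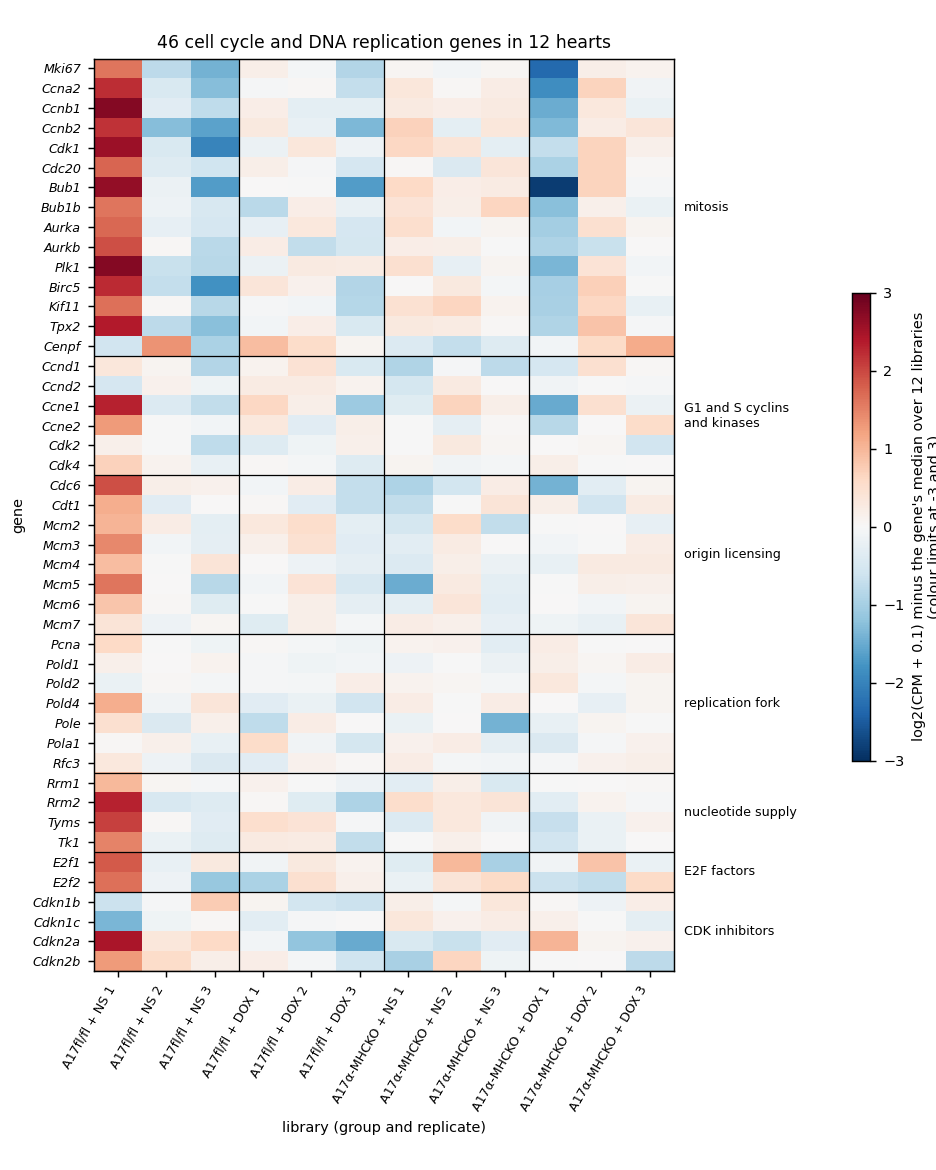
Heat map of the 46 genes (rows, grouped by role) in the 12 libraries (columns, 3 per group), with colour for log2(CPM + 0.1) minus the median of the gene over the 12 libraries. The first column, A17fl/fl + NS replicate 1, is the highest of the 12 for 37 of the 46 genes, and the columns of A17fl/fl + NS replicate 3 and A17α-MHCKO + DOX replicate 1 are blue over most mitosis genes.

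The mitosis genes had the largest median ratio of the roles in that library. For 14 of the 15, A17fl/fl + NS replicate 1 was the highest of the 12 libraries. The ratio of its level to the gene's own median in the other 11 had a median of 4.84 over the 15 genes. Mki67 was at 26.5, 4.97 and 3.13 CPM in A17fl/fl + NS, at 9.68, 8.31 and 4.60 in A17fl/fl + DOX, at 8.89, 8.12 and 8.89 in A17α-MHCKO + NS, and at 1.64, 9.75 and 9.23 in A17α-MHCKO + DOX. The control group thus held the highest of the 12 mice and also the second lowest, A17fl/fl + NS replicate 3, and the lowest was A17α-MHCKO + DOX replicate 1. Cdk1, the mitotic kinase, was at 12.5, 1.44 and 0.439 CPM in A17fl/fl + NS, at 1.76, 2.58 and 1.80 in A17fl/fl + DOX, at 3.15, 2.68 and 1.63 in A17α-MHCKO + NS, and at 1.20, 3.25 and 2.25 in A17α-MHCKO + DOX. Ccnb1 had the largest ratio, 8.84 times the median of the other 11, followed by the mitotic kinase Plk1 at 7.65 times and Bub1 at 7.13 times. The remaining mitosis genes include Birc5, Aurkb and Bub1b, and their ratios ran down to 3.19 for Mki67, with the exception of Cenpf. The lowest of the 12 libraries was A17α-MHCKO + DOX replicate 1 for 10 of the 15 mitosis genes and A17fl/fl + NS replicate 3 for the other 5. The share of all genes for which these libraries were the lowest is not given here. They were the highest for 15.4% and 13.9% of all genes tested, in the same order.

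Cenpf, which encodes a large kinetochore protein, did not follow the other mitosis genes. It was at 6.12, 23.2 and 4.64 CPM in A17fl/fl + NS, at 17.5, 13.4 and 9.57 in A17fl/fl + DOX, at 6.79, 5.49 and 6.97 in A17α-MHCKO + NS, and at 8.62, 13.7 and 19.9 in A17α-MHCKO + DOX. Its highest library was A17fl/fl + NS replicate 2, and A17fl/fl + NS replicate 1 ranked 10 of 12. In the knockout, every DOX mouse was above every NS mouse, with a log2 change of 1.13 (SE 0.53, unadjusted p = 0.0557, adjusted p = 0.787, edgeR). Among all genes tested, 9.16% had DOX mice all above NS mice in that comparison.

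**Figure D2:**
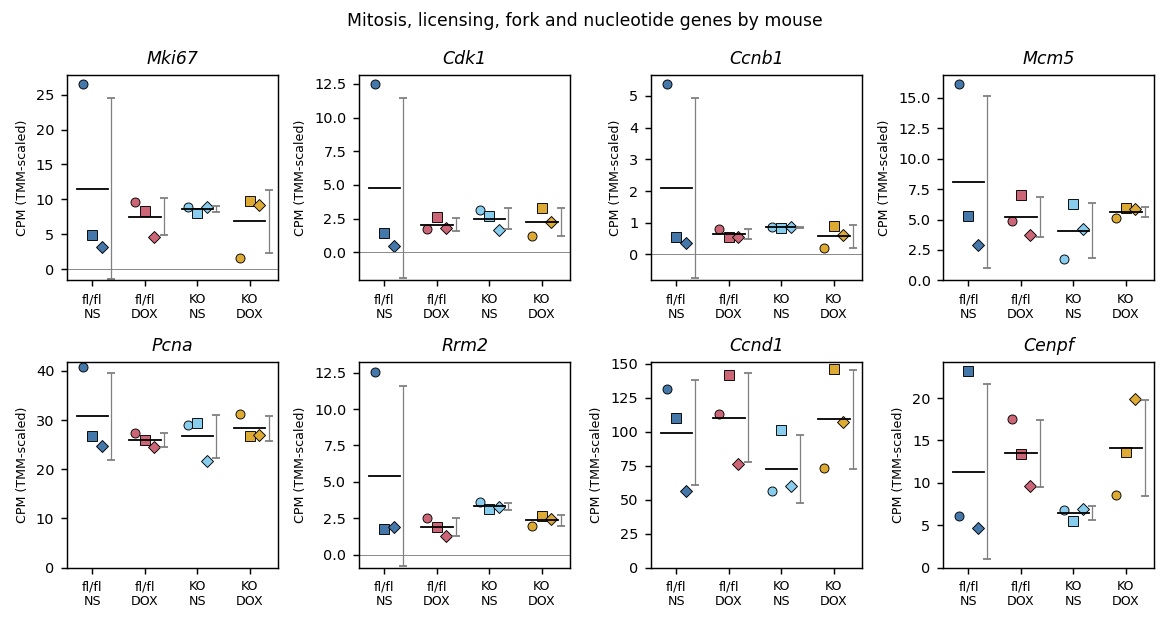
TMM-scaled CPM of 8 members in each mouse, by group (circle, square and diamond for replicates 1, 2 and 3), with the group mean as a black line and the SD as a grey bar (n = 3). The circle of A17fl/fl + NS is the highest point for Mki67, Cdk1, Ccnb1, Mcm5, Pcna and Rrm2, but not for Ccnd1 and Cenpf.

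The cyclins and kinases of G1 and S were split. Ccne1, an E-type cyclin, was at 6.21 times the median of the other 11 in A17fl/fl + NS replicate 1, and Ccne2 at 2.53 times. The D-type cyclins were not. Ccnd1 was at 131.9, 110.0 and 56.6 CPM in A17fl/fl + NS, at 113.0, 142.1 and 76.4 in A17fl/fl + DOX, at 56.2, 101.5 and 60.1 in A17α-MHCKO + NS, and at 73.6, 146.6 and 107.4 in A17α-MHCKO + DOX. The 4 groups overlapped, and in A17fl/fl + NS the highest mouse was over 2 times the lowest. Ccnd2 was at 78.4, 121.5 and 101.8 CPM in A17fl/fl + NS, at 132.0, 130.7 and 119.2 in A17fl/fl + DOX, at 77.0, 134.5 and 111.9 in A17α-MHCKO + NS, and at 103.7, 110.1 and 108.3 in A17α-MHCKO + DOX. After DOX, every knockout mouse was below every floxed mouse for Ccnd2, with a log2 difference of -0.25 (SE 0.20, adjusted p = 1, edgeR), a separation in that direction seen in 7.13% of all genes tested. Cdk4 was at 57.4, 38.5 and 30.2 CPM in A17fl/fl + NS and between 27.2 and 40.2 CPM in the other 9 mice. Cdk2 had its highest value in A17α-MHCKO + NS replicate 2, at 13.4 CPM, and its lowest in A17fl/fl + NS replicate 3, at 6.39 CPM.

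All 8 genes of origin licensing were at their highest in A17fl/fl + NS replicate 1, at 1.36 (Mcm7) to 4.59 (Cdc6) times the median of the other 11. Mcm2 was at 15.2, 8.68 and 6.08 CPM in A17fl/fl + NS, at 9.24, 10.7 and 6.03 in A17fl/fl + DOX, at 5.12, 10.9 and 4.42 in A17α-MHCKO + NS, and at 7.36, 7.47 and 6.25 in A17α-MHCKO + DOX. Mcm5 was at 16.2, 5.27 and 2.88 CPM, at 4.91, 7.02 and 3.73, at 1.79, 6.26 and 4.24, and at 5.16, 5.91 and 5.83, in the same order of groups. For both genes the groups overlapped, and in A17α-MHCKO + NS replicate 2 was the highest of its group. Mcm4 was at 19.1, 9.81 and 13.0 CPM in A17fl/fl + NS, 9.998, 8.86 and 8.27 in A17fl/fl + DOX, 7.47, 11.2 and 8.72 in A17α-MHCKO + NS, and 8.50, 11.9 and 11.96 in A17α-MHCKO + DOX. Cdc6 was low throughout, at 2.89, 0.778 and 0.752 CPM in A17fl/fl + NS, 0.629, 0.800 and 0.373 in A17fl/fl + DOX, 0.309, 0.432 and 0.814 in A17α-MHCKO + NS, and 0.189, 0.520 and 0.729 in A17α-MHCKO + DOX.

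At the replication fork the spread was narrower. Pcna was at 40.9, 26.8 and 24.7 CPM in A17fl/fl + NS, and the other 9 mice lay between 21.6 and 31.2 CPM. The catalytic subunit of polymerase epsilon, Pole, and the clamp loader subunit Rfc3 were also highest in A17fl/fl + NS replicate 1, at 1.41 and 1.28 times the median of the other 11. Pola1, the catalytic subunit of polymerase alpha, was not, with 6.06 CPM there and 4.04 to 8.61 CPM in the others.

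DNA polymerase delta is built from a catalytic subunit, Pold1, and the accessory subunits Pold2, Pold3 and Pold4. Pold1 was at 14.6, 13.2 and 14.1 CPM in A17fl/fl + NS, at 12.9, 12.1 and 12.6 in A17fl/fl + DOX, at 11.9, 13.2 and 11.6 in A17α-MHCKO + NS, and at 14.9, 13.8 and 15.5 in A17α-MHCKO + DOX. Pold1 was thus lower in every DOX mouse than in every NS mouse of A17fl/fl, and higher in every DOX mouse than in every NS mouse of A17α-MHCKO. The log2 changes were -0.16 (SE 0.12) and 0.27 (SE 0.12), and their difference was 0.42 (SE 0.18, unadjusted p = 0.0349, adjusted p = 0.828, edgeR), or 0.39 without A17fl/fl + NS replicate 1. Separation in the same direction was seen in 6.11% of all genes tested in A17fl/fl and in 9.16% in A17α-MHCKO. Pold2 lay between 18.7 and 26.4 CPM in all 12 mice and had no unadjusted p under 0.05 in any of the 7 comparisons. Its lowest value was in A17fl/fl + NS replicate 1.

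Pold4 was at 24.2, 10.5 and 14.6 CPM in A17fl/fl + NS, at 8.99, 9.91 and 7.58 in A17fl/fl + DOX, at 13.3, 11.2 and 13.2 in A17α-MHCKO + NS, and at 11.5, 9.49 and 12.1 in A17α-MHCKO + DOX. In A17fl/fl every DOX mouse was below every NS mouse for Pold4, as for 6.11% of all genes tested. The group means of Pold4 were 8.83 ± 1.17 and 16.5 ± 7.04 CPM (SD, n = 3 each). The log2 change was -0.90 (SE 0.26, unadjusted p = 0.00563, adjusted p = 0.358, edgeR), and -0.51 without A17fl/fl + NS replicate 1. The adjusted p was 0.0354 without A17fl/fl + NS replicate 2, and it lay between 0.0354 and 0.791 over all alternatives. In A17α-MHCKO the log2 change was -0.19 (SE 0.26), and the difference between genotypes was 0.71 (SE 0.37, unadjusted p = 0.0797). Over both genotypes together the log2 change was -0.54 (SE 0.19, unadjusted p = 0.0136, adjusted p = 0.372, edgeR), and -0.35 without A17fl/fl + NS replicate 1.

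Pold3, which is not among the 46 genes, differed between genotypes. It lay between 8.26 and 12.8 CPM in the 6 A17fl/fl mice and between 81.6 and 155.2 CPM in the 6 A17α-MHCKO mice, with no overlap and a log2 difference of 3.69 (SE 0.17, adjusted p = 2.70e-06, edgeR). The same comparison over both treatments gave 0.02 (SE 0.09) for Pold1, 0.09 (SE 0.10) for Pold2 and -0.04 (SE 0.19) for Pold4. The ratio of the mean of the knockout mice to the mean of the floxed mice was 13.0 for Pold3, 1.02 for Pold1, 1.07 for Pold2 and 0.933 for Pold4. With mice of both treatments pooled, Pold1, Pold2 and Pold4 overlapped between genotypes.

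**Figure D3:**
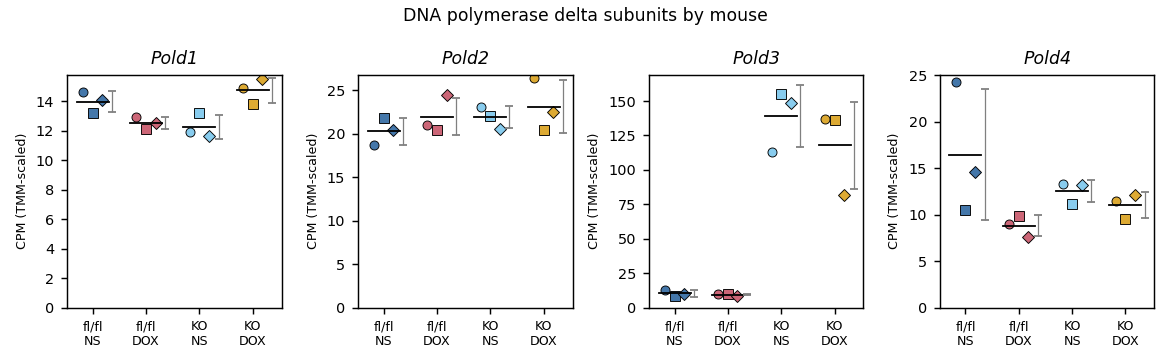
TMM-scaled CPM of the 4 subunits of DNA polymerase delta in each mouse, by group (circle, square and diamond for replicates 1, 2 and 3), with the group mean as a black line and the SD as a grey bar (n = 3). Pold3 lies above 80 CPM in every A17α-MHCKO mouse and below 13 CPM in every A17fl/fl mouse, while Pold1, Pold2 and Pold4 overlap between genotypes when mice of both treatments are pooled.

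All 4 genes of nucleotide supply were highest in A17fl/fl + NS replicate 1. Rrm2, the regulated subunit of ribonucleotide reductase, was at 12.6, 1.74 and 1.88 CPM in A17fl/fl + NS, at 2.52, 1.91 and 1.24 in A17fl/fl + DOX, at 3.58, 3.11 and 3.25 in A17α-MHCKO + NS, and at 1.95, 2.67 and 2.43 in A17α-MHCKO + DOX. Its log2 change after DOX in A17fl/fl was -1.51 (SE 0.65, unadjusted p = 0.0390, adjusted p = 0.449, edgeR) and turned to 0.06 without replicate 1 of A17fl/fl + NS. In A17α-MHCKO every DOX mouse was below every NS mouse for Rrm2, as for 7.79% of all genes tested. The log2 change of Rrm2 there was -0.50 (SE 0.64, adjusted p = 0.917, edgeR). Rrm1, the large subunit of the same enzyme, was at 35.5, 18.8 and 17.6 CPM in A17fl/fl + NS and between 13.1 and 20.5 CPM in the other 9 mice. Tyms, thymidylate synthase, was at 10.7, 2.57 and 1.94 CPM in A17fl/fl + NS, at 3.58, 3.32 and 2.42 in A17fl/fl + DOX, at 1.85, 3.15 and 2.33 in A17α-MHCKO + NS, and at 1.51, 2.15 and 2.73 in A17α-MHCKO + DOX. Its groups overlapped.

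Both E2F factors followed the same mouse. E2f1 was at 7.56, 1.74 and 2.51 CPM in A17fl/fl + NS, at 1.89, 2.52 and 2.17 in A17fl/fl + DOX, at 1.54, 4.06 and 0.988 in A17α-MHCKO + NS, and at 1.89, 3.77 and 1.76 in A17α-MHCKO + DOX. The knockout mice were more spread than the A17fl/fl + DOX mice, and the groups overlapped. E2f2 was at 3.79 times the median of the other 11 in A17fl/fl + NS replicate 1.

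The CDK inhibitors went in both directions in that mouse. Cdkn1b was at 24.6, 37.8 and 65.5 CPM in A17fl/fl + NS, at 41.4, 26.4 and 24.8 in A17fl/fl + DOX, at 43.6, 37.6 and 49.6 in A17α-MHCKO + NS, and at 40.0, 35.0 and 44.8 in A17α-MHCKO + DOX. Cdkn1c was at 9.18, 21.9 and 24.4 CPM in A17fl/fl + NS, at 19.1, 23.4 and 24.4 in A17fl/fl + DOX, at 30.2, 26.3 and 28.1 in A17α-MHCKO + NS, and at 26.6, 23.7 and 19.7 in A17α-MHCKO + DOX. For both genes A17fl/fl + NS replicate 1 was the lowest of the 12 mice, at 0.616 and 0.377 times the median of the other 11. After NS, every knockout mouse was above every floxed mouse for Cdkn1c, with a log2 difference of 0.61 (SE 0.29, adjusted p = 0.508, edgeR), which was 0.28 without that mouse. Of all genes tested, 5.52% separated in that direction. Cdkn2b was at 1.85, 1.08 and 0.814 CPM in A17fl/fl + NS, at 0.817, 0.677 and 0.435 in A17fl/fl + DOX, at 0.309, 1.17 and 0.639 in A17α-MHCKO + NS, and at 0.692, 0.715 and 0.364 in A17α-MHCKO + DOX.

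Cdkn2a, which encodes an inhibitor of Cdk4 and, in another reading frame, an activator of p53, had the largest difference between genotypes in its log2 change after DOX. It was at 3.40, 0.718 and 0.877 CPM in A17fl/fl + NS, at 0.503, 0.185 and 0.124 in A17fl/fl + DOX, at 0.370, 0.302 and 0.407 in A17α-MHCKO + NS, and at 1.20, 0.585 and 0.607 in A17α-MHCKO + DOX. Behind these levels were 59, 12 and 14 counts, then 8, 3 and 2, then 6, 7 and 7, then 19, 9 and 10 counts, in the same order. No group overlapped with the group of the other treatment or of the other genotype. Every DOX mouse was lower than every NS mouse in A17fl/fl, with a log2 change of -2.60 (SE 0.71, unadjusted p = 0.00345, adjusted p = 0.334, edgeR), and -1.54 without A17fl/fl + NS replicate 1 (SE 0.61, unadjusted p = 0.0275, adjusted p = 0.432). Every DOX mouse was higher than every NS mouse in A17α-MHCKO, with a log2 change of 1.14 (SE 0.69, adjusted p = 0.826). The difference between the changes was 3.74 (SE 0.99, unadjusted p = 0.00288, adjusted p = 0.828, edgeR), and 2.68 without A17fl/fl + NS replicate 1 (SE 0.81, unadjusted p = 0.00668, adjusted p = 0.531). Of all genes tested, 0.646% had NS and DOX mice that did not overlap in either genotype and moved in opposite directions. Among the 46 members, these were Cdkn2a and Pold1. With 3 mice against 3, an exact permutation test of 1 gene cannot go below p = 0.1, so it could not separate any 2 groups here.

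**Figure D4:**
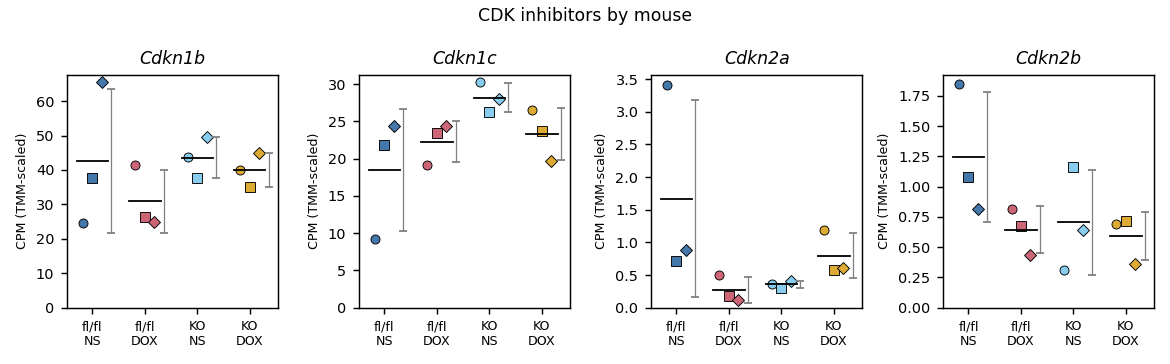
TMM-scaled CPM of the 4 CDK inhibitors in each mouse, by group (circle, square and diamond for replicates 1, 2 and 3), with the group mean as a black line and the SD as a grey bar (n = 3). The circle of A17fl/fl + NS is the lowest point for Cdkn1b and Cdkn1c and the highest for Cdkn2a and Cdkn2b, and Cdkn2a is lower after DOX in A17fl/fl and higher after DOX in A17α-MHCKO.

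The first comparison asked what DOX did in hearts with ADAM17. In A17fl/fl, 38 of the 46 members had a negative log2 change and 8 a positive one, where 44.5% of all genes had a positive one, with a median of -0.63 against -0.04 over all genes tested. No member passed the adjusted p of 0.05 by edgeR or by DESeq2, and of all genes tested 0% did by edgeR. At an unadjusted p under 0.05, 4 members were lower (Cdkn2a, Pold4, Mcm4 and Rrm2), against 6.58% of all genes, and 0 were higher, against 4.11%. The limits of the study, a log2 change beyond 1 with an unadjusted p under 0.05 and a group mean over 1 FPKM, were met by 2 members, Rrm2 and Cdkn2a, both lower, against 2.22% of all genes. By role, the median log2 change was -1.13 for mitosis, -0.55 for origin licensing, -0.65 for nucleotide supply, -0.16 for the replication fork and -0.16 for the cyclins and kinases of G1 and S. Without A17fl/fl + NS replicate 1 the median over the members was 0.13 against -0.01 over all genes, 32 of the 46 changes were positive against 48.8% of all genes, and 14 of the 15 mitosis genes were positive with a median of 0.48. Ccnb2 then had a log2 change of 1.27 in place of -1.13, and Cdk1 of 1.11 in place of -1.22. At an unadjusted p under 0.05, 3 members were lower without that library (Cdkn1b, Cdkn2a and Pold4) and 0 higher, against 5.6% and 4.63% of all genes, and 0 members passed the adjusted p, against 0%. With all libraries, DOX mice were all below NS mice for 3 members (Cdkn2a, Pold1 and Pold4), against 6.11% of all genes.

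The same comparison in A17α-MHCKO used other saline controls. There were 19 positive and 27 negative log2 changes, with a median of -0.07 against 0.00 over all genes tested, of which 50.5% had a positive change. There were 0 members with an unadjusted p under 0.05 against 6.42% of all genes, and 0 with an adjusted p under 0.05 against 0%. The median was -0.33 for mitosis, 0.04 for origin licensing and 0.08 for the replication fork. Of the 15 mitosis genes, 13 had a negative change. A17α-MHCKO + DOX replicate 1 was the lowest of all 12 mice for 10 of the 15, and without it the median over the members was 0.03. Its neutrophil markers summed to 66.0 CPM, against 11.6 to 21.3 CPM in the other 5 knockout mice, and its fibroblast markers to 1377 CPM, against 1413 to 2507 CPM. Col1a1 (105.0 CPM) and Col3a1 (139.6 CPM) were at their lowest among the knockout mice there, while Dcn (926.9 CPM) was not low. The part of the cells with these markers in the level of the mitosis genes was not tested. DOX and NS mice did not overlap for 5 members, with Cenpf, Pold1 and Cdkn2a higher and Bub1b and Rrm2 lower, against 9.16% and 7.79% of all genes. A17fl/fl + NS replicate 1 is not among these mice but shares in the fit. When it was left out, 2 members were higher at an unadjusted p under 0.05, against 6.59% of all genes. There were 0 lower, against 4.88%. The median over the members was then -0.08, and the lowest adjusted p among them was 0.411 (edgeR).

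The next comparison asked how knockout and floxed hearts differed after saline. With all 12 libraries, 39 of the 46 members were lower in A17α-MHCKO + NS than in A17fl/fl + NS, with a median log2 difference of -0.55 against -0.03 over all genes tested, of which 45.5% were higher. At an unadjusted p under 0.05, Cdkn2a, Mcm4, Cdc6 and Rrm1 were lower, against 6.53% of all genes, and 0 members were higher, against 3.61%. None passed the adjusted p, against 0.0186% of all genes. Knockout and floxed mice did not overlap for Cdkn1c, which was higher, against 5.52% of all genes, and for Cdkn2a and Pold1, which were lower, against 5.34%. The differences were -2.20 (SE 0.67) for Cdkn2a, -0.61 (SE 0.25) for Mcm4, -1.50 (SE 0.65) for Cdc6 and -0.58 (SE 0.26) for Rrm1. Without A17fl/fl + NS replicate 1 they were -1.14, -0.32, -0.56 and -0.18, in the same order. Without A17fl/fl + NS replicate 1, 32 of the 46 were higher in the knockout against 49.2% of all genes, with a median of 0.12 against -0.01, and 14 of the 15 mitosis genes were higher with a median of 0.96. All 3 knockout mice were then above both floxed mice for 18 of the 46 members, 12 of them mitosis genes, against 12.9% of all genes, and below both for 2, against 12.2%. At an unadjusted p under 0.05, 5 members were then higher, against 4.58% of all genes, and 0 lower, against 5.65%. These were Ccnb2 (log2 difference 1.86, SE 0.64), Cdk1 (1.39, SE 0.54), the inhibitor of apoptosis and mitotic regulator Birc5 (1.39, SE 0.61), the spindle protein Tpx2 (1.25, SE 0.46) and Rrm2 (0.87, SE 0.31). The lowest adjusted p among them was 0.364 (edgeR). These differences rest on 2 floxed mice, of which A17fl/fl + NS replicate 3 was the lowest of all 12 for 5 mitosis genes. That mouse also had the lowest sum of fibroblast markers, 1189 CPM. Its Col1a1 (85.0 CPM) and Col3a1 (109.7 CPM) were the lowest of the 12 mice. Pdgfra, Lum and Postn were in the lower part of their ranges. Its Tcf21 (14.1 CPM, with 9.35 to 18.05 over the 12 mice) and Dcn (787.7 CPM, with 627.1 to 963.6) were not low. The 5 atrial markers of A17fl/fl + NS replicate 3 summed to 332.5 CPM, against 7270 CPM in A17fl/fl + NS replicate 2 and 3864 to 8361 CPM in A17α-MHCKO + NS. Its 5 adipocyte markers summed to 0.752 CPM, against 83.3 CPM and 18.4 to 98.9 CPM. A17fl/fl + NS replicate 1, left out here, was low in both as well. Its atrial markers summed to 1021 CPM, of which Nppa held 1020 CPM, and its adipocyte markers to 2.19 CPM. The part of these differences between tissue samples in the level of the members was not tested.

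**Figure D5:**
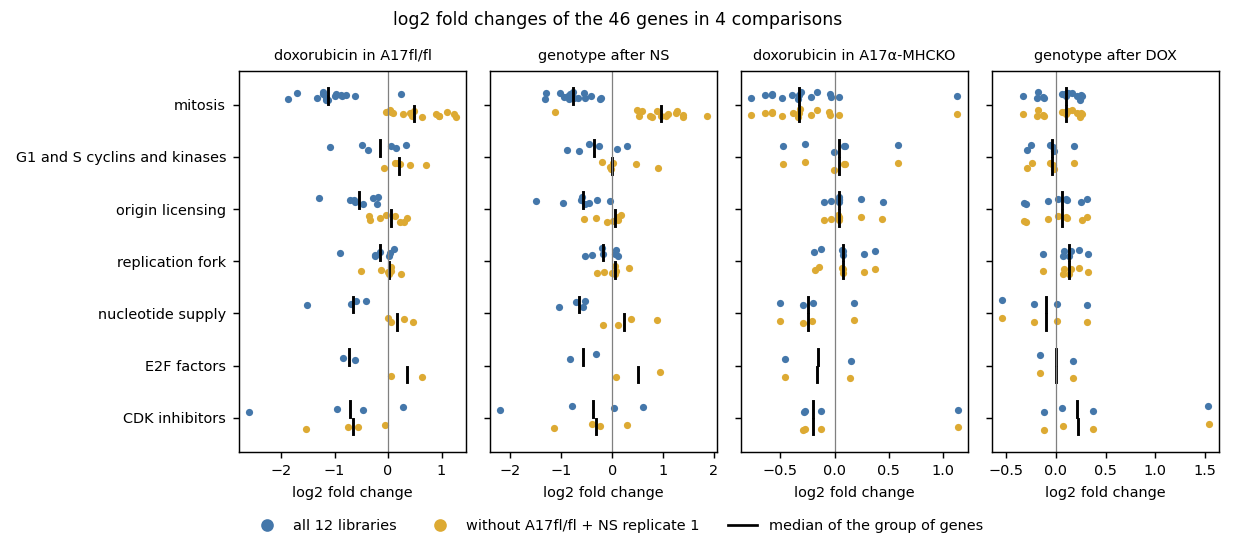
log2 fold changes of the 46 genes (points, by role) in 4 comparisons, with all 12 libraries (blue) and without A17fl/fl + NS replicate 1 (yellow), with the median of each role as a black bar. In the 2 panels that use A17fl/fl + NS, the mitosis medians move from -1.13 to 0.48 and from -0.77 to 0.96, and in the other 2 panels the 2 colours lie at nearly the same values.

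The comparison of genotypes after DOX asked how knockout and floxed hearts differed when treated. Of the 46 members, 28 were higher and 18 lower in A17α-MHCKO + DOX than in A17fl/fl + DOX, with a median log2 difference of 0.08 against 0.01 over all genes tested, of which 51.1% were higher. None had an unadjusted p under 0.05, against 2.7% of all genes, and the limits of the study were met by 0 members, against 0.205%. The adjusted p of 0.05 was passed by 0 members, against 0.00621% of all genes. Knockout and floxed mice did not overlap for Cdkn2a and Pold1, which were higher, against 6.96% of all genes, and for Ccnd2, which was lower. The difference with the smallest p was that of Cdkn2a, 1.53 (SE 0.72, unadjusted p = 0.0568, adjusted p = 1, edgeR). This comparison does not use the A17fl/fl + NS group, but A17fl/fl + NS replicate 1 shares in the fit. Without that library, 1 member, a CDK inhibitor, was higher at an unadjusted p under 0.05, against 3.35% of all genes. There were 0 lower, against 2.49%, and 0 passed the adjusted p, against 0.0122%. The median over the members was again 0.08.

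The test of whether the response to DOX differed between genotypes shares its saline controls with the comparisons above. The log2 interaction was positive for 41 of the 46 members, with a median of 0.59 against 0.06 over all genes tested, of which 56.3% were positive. At an unadjusted p under 0.05 there were 3 members, all positive, Cdkn2a, Mcm4 (0.86, SE 0.36) and Pold1, against 3.5% of all genes, and 0 passed the adjusted p, against 0%. Without A17fl/fl + NS replicate 1, 17 of the 46 were positive against 52.2% of all genes, and the median was -0.20, with -1.01 for mitosis. At an unadjusted p under 0.05, 2 members were then positive and 0 negative, against 3.82% and 3.3% of all genes. Over both genotypes, DOX gave a median log2 change of -0.36, with Pold4 and Rrm2 lower at an unadjusted p under 0.05 against 5.2% of all genes, and 0.08 without that library. There 7 of the 46 changes were positive against 45.6% of all genes, 29 of the 46 without that library against 49.3%, and 0 members passed the adjusted p against 0%. Without that library, 2 members were lower and 0 higher at an unadjusted p under 0.05, against 7.45% and 7.57% of all genes. Over both treatments, the knockout gave a median log2 difference of -0.25, with 0 members at an unadjusted p under 0.05 against 6.65% of all genes, and 0.13 without that library. There 7 of the 46 were higher against 47.4% of all genes, 34 of the 46 without that library against 50.1%, and 0 members passed the adjusted p against 0.0248%. Without that library, 3 members were higher and 0 lower at an unadjusted p under 0.05, against 5.36% and 4.96% of all genes.

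The other genes of the cell cycle and of replication, a list of 176 of which 168 were tested, had the same dependence on that library. Their median log2 change after DOX in A17fl/fl was -0.42, with 3 higher and 7 lower at an unadjusted p under 0.05, against 4.11% and 6.58% of all genes. Without A17fl/fl + NS replicate 1 the median was 0.13, with 9 higher and 5 lower against 4.63% and 5.6%. For genotype after NS, 2 were higher and 7 lower with all libraries (3.61% and 6.53% of all genes), and 22 higher and 5 lower without that library (4.58% and 5.65%). In A17α-MHCKO after DOX 3 were higher and 0 lower, with a median of -0.02, against 3.97% and 2.44% of all genes. Without A17fl/fl + NS replicate 1, which is not among the mice compared there but shares in the fit, 8 were higher and 1 lower, against 6.59% and 4.88%. Pold3 alone passed the adjusted p, in the comparisons of genotype. After DOX in A17fl/fl, the smallest p among positive log2 changes were those of Cdc23 (0.35, SE 0.13), a subunit of the anaphase-promoting complex, and Fzr1 (0.33, SE 0.13), its activator. Among negative ones they were those of Cks1b (-1.31, SE 0.50) and Anln (-1.56, SE 0.61), which were -0.30 and -0.65 without that library. In A17α-MHCKO the licensing inhibitor Gmnn (0.80, SE 0.24) and the helicase partner Gins3 (0.78, SE 0.32) had the smallest p, with adjusted p = 0.697 for Gmnn and 0.756 for Gins3 (edgeR). Over both genotypes the smallest p were those of Fzr1 (0.30, SE 0.09), Pttg1 (0.54, SE 0.22), Anln (-1.05, SE 0.42) and Cdkn1a (-1.31, SE 0.46), a CDK inhibitor induced by p53. Cdkn1a was at 276.2, 81.3 and 46.4 CPM in A17fl/fl + NS, at 62.6, 48.1 and 41.0 in A17fl/fl + DOX, at 210.1, 37.5 and 126.6 in A17α-MHCKO + NS, and at 66.3, 42.8 and 53.4 in A17α-MHCKO + DOX. Its saline mice were more spread than its DOX mice in both genotypes.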

How the data were processed

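RNA was extracted from heart tissue (left ventricle in the study's text) of 12 mice, 3 in each of 4 groups, and sequenced as mRNA libraries. The authors deposited read counts per gene, together with FPKM values made from the same counts, for 53465 genes. Per the labels, reads were processed with CASAVA 1.8, HISAT2, SAMtools 1.3.1 and edgeR on build GRCm39, and the study's methods name StringTie for counting. The annotation release is not given in the sources used here. Groups followed the labels.

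Counts were filtered with filterByExpr, which left 16101 genes, scaled by TMM and fitted in 1 model of 4 groups with the quasi-likelihood test of edgeR 4.0.16 in R 4.3.3, for 7 contrasts, with Benjamini-Hochberg adjustment over all genes tested. CPM values are TMM-scaled, and the SE is that of the fitted log2 change. Totals were 15950717 to 21725076 counts. Per-mouse values are given for representatives of each role and for up to 4 members with the smallest unadjusted p under 0.05 in each comparison, and the other members named with values, Cenpf among them, were chosen after their values were seen. From the other cell cycle genes, those with an adjusted p under 0.05 and up to 2 per direction with the smallest p after doxorubicin are named. The 46 members and the lists of other genes and markers were chosen with earlier results of these data known. Alternatives were DESeq2 1.42.0, other scalings and filters, the likelihood ratio test, the 2 groups alone, a replicate block and leaving out each mouse. No gene coordinates are given for the counted genes, since the reference annotation used here is of another build.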

Additional observations from a re-analysis of the deposited data

Results flagged for a closer look

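In 2 members every doxorubicin mouse lay on one side of every saline mouse in A17fl/fl and on the opposite side in A17α-MHCKO. For Cdkn2a the change in A17α-MHCKO minus that in A17fl/fl was 3.74 on the log2 scale, with levels between 0.124 and 3.40 CPM and between 2 and 59 counts per library. For Pold1 the same difference was 0.42, with levels between 11.6 and 15.5 CPM. Neither passed the test of the difference after adjustment over all genes (adjusted p = 0.828 for both, edgeR), and 0.646% of all genes tested showed the same kind of opposite separation. A17fl/fl + NS replicate 1 was not tested as an outlier.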

How the results depend on the processing

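A17fl/fl + NS replicate 1 decided the sign of the median log2 change of the members. With each mouse left out in turn, the median ranged from -1.01 to 0.13 for doxorubicin in A17fl/fl, from -0.86 to 0.12 for genotype after NS and from -0.20 to 0.86 for the interaction, and the end with the changed sign (0.13, 0.12 and -0.20) was without that mouse each time. Rrm2 after doxorubicin in A17fl/fl turned from -1.51 to 0.06 without it, in a range of -1.93 to 0.06 with each mouse left out. The members with an adjusted p under 0.05 in A17fl/fl after doxorubicin numbered 0 to 1, the 1 being Pold4 (-1.14, adjusted p = 0.0354, edgeR) without A17fl/fl + NS replicate 2, and 0 for every mouse left out in the other 6 comparisons. The members that met the limits of the study in A17fl/fl numbered 2 with all libraries, 1 with 10 counts required in every library, 1 with the 2 groups fitted alone, and 0 to 8 with a mouse left out (0 without A17fl/fl + NS replicate 1, 4 without replicate 2 and 8 without replicate 3). Deviations of mice of different groups with the same replicate number had correlations of -0.10 to 0.22 over 18 pairs, 3 over 0.1. The median was 0.00, against -0.01 for different numbers. With so few mice per group these values cannot exclude a pairing by number, and the main fit treated the mice as unpaired. With a replicate block the medians were -0.59, -0.03, -0.42, 0.09, 0.53, -0.30 and -0.12 for the 7 comparisons in the order of the report, 0 members passed the adjusted p, and 1 met the limits of the study in A17fl/fl. DESeq2, other scalings, no filter and the likelihood ratio test moved no other median past its spread and brought no member past the adjusted p. The median over the 12 mice was under 1 FPKM for 13 of the 15 mitosis genes. The precision of their values follows the counts, which ran from 0 to 76 for Bub1 and from 74 to 387 for Cenpf.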
